A study of Mus musculus with 10 samples.

Results

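The comparison is between single cells picked out of colonies on day 12 of chemical reprogramming and cells taken on the same day without picking a colony. Its members were chosen by name: colony cells (d12c) with a running number from 1 to 24, and all day 12 cells (d12), each with at least 4000 detected genes. This left 21 of 24 colony cells and 67 of 72 unpicked cells, 88 of the 670 cells kept in the whole series and of 808 deposited. The colony cells that were left out had 666, 1910 and 1968 detected genes, and the nearest ones kept had 4162 and 4278.

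The cells were mouse embryonic fibroblasts of the ICR strain, isolated from embryos without head, limbs and viscera, on their way to cells that resemble extraembryonic endoderm (XEN). Both groups received the same cocktail, C6FAE: CHIR99021, which activates Wnt signalling, the TGF-β receptor inhibitor abbreviated 6, Forskolin, which raises cAMP, the retinoic acid receptor agonist AM580, and EPZ004777, an inhibitor of the methyltransferase DOT1L. The study's results name C6FAE for the single cells, while its methods describe the cocktail with valproic acid added. Fibroblast cultures of this kind hold several mesenchymal cell types from more than 1 embryo. How a colony was recognised for picking is not given in the sources used here. Single cells were lysed one by one and their transcripts tagged with unique molecular identifiers (UMIs), so that each RNA molecule was counted once.

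Extraembryonic endoderm lines the yolk sac, carries nutrients to the embryo and forms a basement membrane. Its cells are epithelial, with keratins 8 and 18, and are specified by *Sox17*, *Gata4*, *Gata6*, *Foxa2* and *Sall4*. Fibroblasts are held in their state by factors such as *Prrx1* and *Twist2* and secrete fibrillar collagens. A cell that goes from the latter to the former has to lose its matrix genes and gain epithelial junctions.

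Depth differed between the groups. Colony cells held a median of 416789 UMIs (102428 to 1212690) and 7373 genes, and unpicked cells 768565 UMIs (49202 to 2102938) and 7938 genes. Spike-in RNAs took a median of 10.67% and 11.03% of their counts. UMIs were scaled to the total of each cell as CPM, and a gene's level in a group is the mean of log2(CPM + 1) over its cells. All differences below are colony minus unpicked on this scale, which understates the change of weak genes. The cells' names do not tell which of the 10 sequenced samples they came from, so all cells count as 1 sample and no test or p-value was possible. A difference of over 1, a fold of about 2 for genes well above the pseudocount, is used only to count genes. Cell number and colony cannot be told apart here: none of the 24 colony cells numbered 25 to 48 passed the limit of detected genes, with a median of 277 genes, and those numbered 49 to 96 form another set (30 of 48 kept).

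Of 9217 genes with a level of at least 1 in either group, 223 (2.42%) were higher by over 1 in the colony cells and 822 (8.92%) were lower by over 1. The median of all differences was -0.16. Past 2 there were 6 higher genes (0.0651%) and 28 lower genes (0.304%). With depth evened out by drawing 50000 UMIs from each of the 21 colony and 66 unpicked cells that held as many, 440 genes (4.77%) were higher and 1068 (11.6%) lower, and 170 of the 223 and 611 of the 822 were again past 1 in the same direction. More genes were lower than higher at both depths. The shares of 2.42% and 8.92% are those to set beside the counts of each gene list below.

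**Figure D1:**
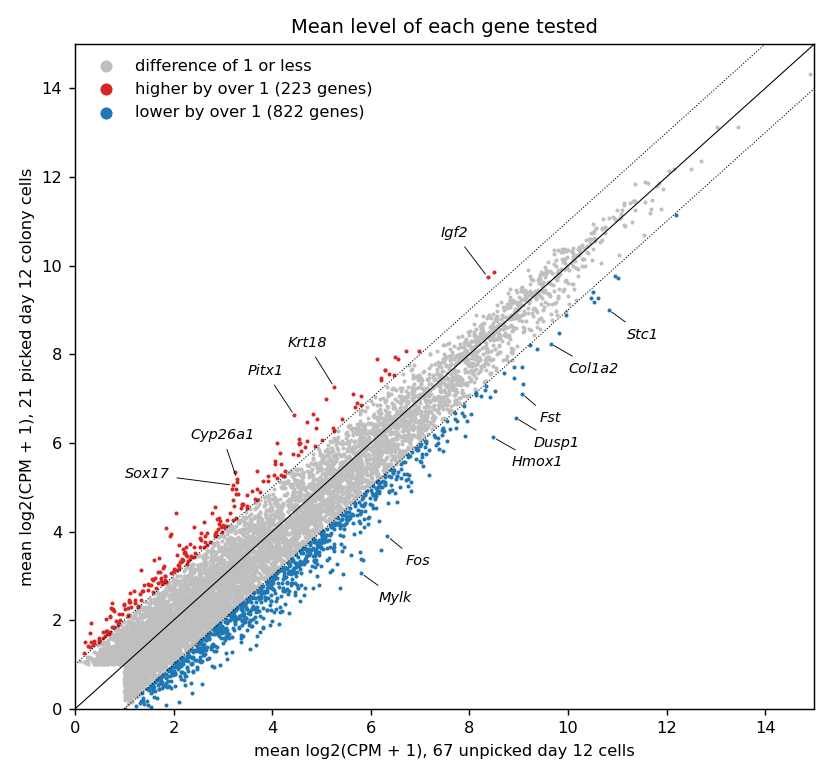
Mean log2(CPM + 1) of each of 9217 genes in 67 unpicked day 12 cells (horizontal axis) and 21 picked colony cells (vertical axis), with 1 point per gene and dotted lines at a difference of 1. The 223 higher genes (red) include *Krt18*, *Pitx1*, *Cyp26a1* and *Sox17*, and the 822 lower genes (blue) include *Fos*, *Dusp1*, *Mylk* and *Hmox1*.

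*Sox17* (chr1:4481009-4486494 on mm9, as all positions here), an endoderm factor, lay between 0 and 1438 CPM in the colony cells with a median of 12.5, and between 0 and 1582 CPM with a median of 5.65 in the unpicked cells. Its level was higher by 1.84 (SD over cells 3.05 and 2.19). Of the 21 colony cells, 19 were above the median of the unpicked cells, yet the ranges overlapped almost wholly. The count of 19 of 21 rests partly on low counts, such as 8.34 CPM in colony cell 19, which held 119959 UMIs. The difference was 1.87, 1.74 and 1.93 against the unpicked cells numbered 1 to 24, 25 to 48 and 49 to 72.

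At 20 CPM or more, *Sox17* was present in 10 of 21 colony cells (47.6%, exact Clopper-Pearson 95% interval 25.7 to 70.2) and in 11 of 67 unpicked cells (16.4%, 8.49 to 27.5). At 100 CPM or more the counts were 7 of 21 (33.3%, 14.6 to 57.0) and 6 of 67 (8.96%, 3.36 to 18.5). These intervals cover counting error only. At least 1 *Sox17* UMI was found in 19 of 21 colony cells and 63 of 67 unpicked cells, against 1 of 72 untreated fibroblasts, whose median depth was 344196 UMIs. Low counts are not read as expression here, since the 32 unpicked cells with *Xist* as their only sex-linked signal, described at the end, still held up to 7 Y-linked UMIs. Thinned to 50000 UMIs, where 20 CPM is 1 UMI, the shares were 61.9% and 40.9%.

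The other XEN master factors were less far apart. *Gata4*, a zinc finger factor of primitive endoderm, ran from 0 to 411 CPM (median 1.27) in colony cells and from 0 to 425 CPM (median 0.87) in unpicked cells, a difference of 0.77. *Gata6* differed by 0.36, *Foxa2* by 0.64 and *Sox7* by 0.08. *Sall4*, a zinc finger factor, had a UMI in 1 of 21 colony cells and 9 of 67 unpicked cells, with a difference of -0.25. Of the 4 XEN master factors measured well enough, only *Sox17* was past 1, and their median difference was 0.70.

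Among 9 further genes listed as XEN regulators, 3 were higher by over 1, none was lower and the median was 0.70. *Cited1*, a transcriptional co-activator, had a lowest level of 3.07 CPM, a median of 9.76 and a highest of 4869 CPM in colony cells, against 0, 6.64 and 2197 CPM. Its difference was 1.76, with 13 of 21 colony cells above the unpicked median and 8 of 21 colony cells and 6 of 67 unpicked cells at 50 CPM or more. The chromatin proteins *Hmgn2* (1.43) and *Hmgb2* (1.22) were the others. Summed over this list, the median was 518 CPM in colony cells and 428 CPM in unpicked cells. It was 3164 CPM in untreated fibroblasts and 5843 CPM in day 20 cells, so the sum was high in fibroblasts too and does not by itself mark XEN cells. *Hnf4a* and *Grhl2* were at 0 in all 88 cells.

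Of 17 XEN surface, carrier and secreted markers, 3 were higher (*Cyp26a1*, *Apoe*, *Bex4*) and 1 was lower (*Serpinh1*, a collagen chaperone, -1.04), with a median of 0.36. *Apoe*, the lipid carrier, had medians of 213 CPM (8.34 to 1852) and 46.8 CPM (0 to 3020) and differed by 1.36. It was above the unpicked median in 17 of 21 colony cells. *Bex4* differed by 1.07, and *Apob* and *Ttr*, carriers of mature yolk sac endoderm, were at 0 in every one of the 88 cells. Among 11 basement membrane genes no member was past 1 either way and 1 was above 0 (*Lama1*, 0.71), and *Sparc*, which fibroblasts also make, differed by -0.84.

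*Cyp26a1*, which degrades retinoic acid and is a classic target of its receptors, was present at 0 to 4418 CPM (median 18.5) in colony cells and at 0 to 1606 CPM (median 5.55) in unpicked cells. The difference was 1.90, with 16 of 21 colony cells above the unpicked median. The bases before its start are shown because they hold the paired half-sites that retinoic acid receptors are known to bind. They span chr19:37772048-37772297 (mm9, plus strand) and end just before the first base of the gene in GENCODE M1. The sequence is RefSeq's (GRCm38.p6 promoter table) and matches mm9 exactly once on this chromosome. Capitals mark the direct repeat, GTTCA followed after 5 bases by AGTTCA, which stands here on the opposite strand.
Cyp26a1: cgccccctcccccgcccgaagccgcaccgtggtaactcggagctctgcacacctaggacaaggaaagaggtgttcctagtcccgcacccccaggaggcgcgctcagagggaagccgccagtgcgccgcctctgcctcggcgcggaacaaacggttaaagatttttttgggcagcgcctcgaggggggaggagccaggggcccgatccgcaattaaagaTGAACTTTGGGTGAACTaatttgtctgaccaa

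Searched on both strands, this motif stood in 9 of 32851 promoters of 250 bases (0.0274%). Among the 11 retinoic acid genes with a promoter in the table, it stood in 2 of 17 promoters, those of *Cyp26a1* and *Rarb*. The pair did not move together. *Rarb*, a retinoic acid receptor, had medians of 5.40 and 23.0 CPM and was lower by 1.02, although the ratio of mean CPM had the opposite sign (0.35 on the log2 scale). The receptor *Rarg* (-1.27) and the binding protein *Crabp1* (-1.05, medians 2033 and 6239 CPM) were lower too. In all, 1 of 12 retinoic acid genes was higher and 3 were lower, with a median of -0.67. A match to these letters is a description of the sequence, not evidence of binding.

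Epithelial genes showed the highest list median of the gene groups, 0.85 over 17 measured members, of which 5 were higher by over 1, none was lower and 16 were above 0. *Krt18* (chr15:101858647-101862457), a keratin of simple epithelia, had a lowest value of 9.66, a median of 52.1 and a highest of 4267 CPM in colony cells, against 11.7, 24.6 and 3315 CPM in unpicked cells. Its difference was 2.00 (SD over cells 2.82 and 1.74). As with *Sox17*, the lower ends of the groups overlapped, and the colony cells added a body of cells at the upper end. The partner keratin *Krt8* differed by 1.14, *Krt19* by 1.36 and the junction protein *F11r* by 1.03. Summed over the list, the median was 377 CPM (109 to 15348) in colony cells and 166 CPM (81.9 to 15271) in unpicked cells, and 20 of 21 colony cells were above the unpicked median. *Krt8* was at 19.5 CPM or more in every colony cell and at 21.3 CPM or more in every unpicked cell, so low keratin counts were present throughout. The summed list had a median of 19.96 CPM in unpicked day 8 cells. In untreated fibroblasts its median was 90.02 CPM and its lowest value 0. Low keratin counts are therefore not read as expression, like those of *Sox17*, and their source was not tested. The count of 20 of 21 colony cells rests partly on such low sums.

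*Pitx1* (chr13:55926415-55937553), a homeobox factor of hindlimb and oral tissue, was among the genes with the highest differences. Colony cells ran from 3.43 to 1621 CPM (median 102) and unpicked cells from 0 to 1729 CPM (median 9.74), a difference of 2.18 with 17 of 21 colony cells above the unpicked median. It was 1.20 without the *Sox17*-high cells described next.

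The cells with *Sox17* at 100 CPM or more were then looked at apart. They make up 7 of 21 colony cells and 6 of 67 unpicked cells, and this limit cuts a continuous range, with 3 colony and 5 unpicked cells between 20 and 100 CPM. In the 7 colony cells the keratin and junction sum had a median of 5500 CPM and the fibroblast matrix sum one of 3296 CPM. In the other 14 colony cells the medians were 254 and 15869 CPM, against 163 and 15806 CPM in the 61 unpicked cells under the limit. The summed matrix medians were thus alike in these cells. Gene by gene, 9 of 26 matrix genes were still lower by over 1 in them, with a median of -0.61. Of the 14 colony cells, 13 lay above the unpicked median of the keratin and junction sum, mostly at low sums whose source was not tested. Without the cells over the limit on both sides, the median difference was 0.28 for epithelial genes, 0.33 for XEN master factors, a list that holds *Sox17* itself, 0.13 for XEN regulators and -0.14 for XEN markers, beside -0.33 for all genes. For single genes the difference became 0.62 for *Sox17*, which the limit itself used, 1.05 for *Krt18*, 0.89 for *Cyp26a1*, 0.65 for *Cited1* and -0.25 for *Bex4*. Then 185 genes (2.01%) were higher and 1372 (14.9%) lower, with 101 of the 223 and 681 of the 822 again past 1.

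Within the 21 colony cells *Sox17* and *Krt18* had a Spearman correlation of 0.76, and *Sox17* and *Prrx1* one of -0.51. Among the 67 unpicked cells these were 0.36 and -0.26. The keratin and junction sum and the fibroblast matrix sum correlated at -0.70 in colony cells and at -0.33 in unpicked cells. Cells share the table, and CPM are parts of 1 total, so these values are descriptions. Depth correlated with *Sox17* at 0.41 in colony cells and 0.05 in unpicked cells.

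**Figure D2:**
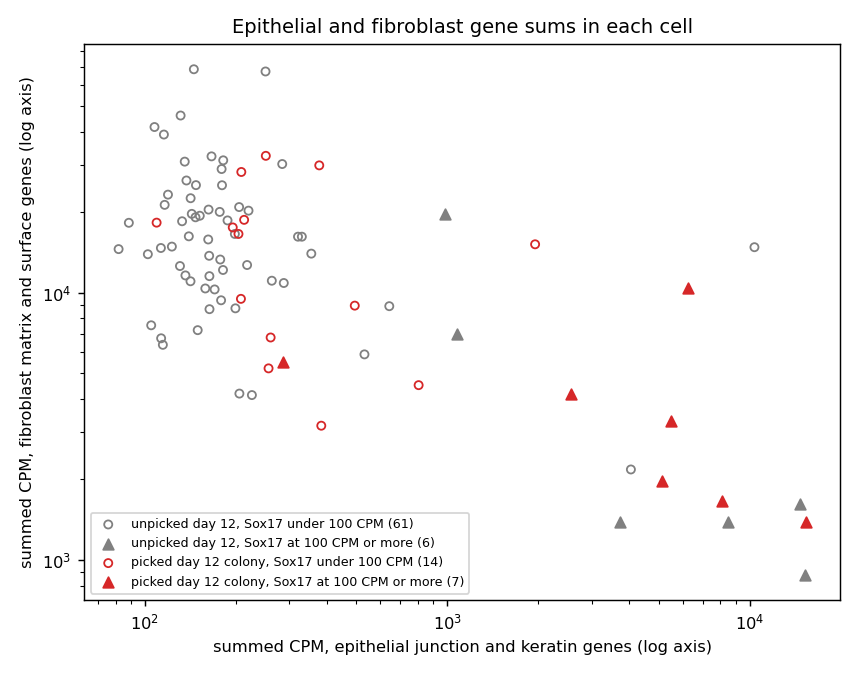
Summed CPM of 20 epithelial junction and keratin genes (horizontal, log axis) against 26 fibroblast matrix and surface genes (vertical, log axis), with 1 mark per cell. Filled triangles are cells with *Sox17* at 100 CPM or more (7 colony, 6 unpicked), most of which lie to the lower right, while most of the other 14 colony cells lie among the 61 unpicked ones.

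On the fibroblast side, *Prrx1*, a homeobox factor of limb and body wall mesenchyme, lay between 15.3 and 734 CPM (median 206) in colony cells and between 8.07 and 1274 CPM (median 370) in unpicked cells. The difference was -1.02, with 12 of 21 colony cells under the unpicked median, and the colony median was 22.4 CPM in the 7 *Sox17*-high cells and 388 CPM in the other 14. *Twist2* differed by -0.89 with 18 of 21 colony cells under the unpicked median, *Twist1* by -0.47 and *Osr1* by 0.11. Of the 4 fibroblast master factors 1 was past 1, and their median was -0.68, or -0.27 without the *Sox17*-high cells. Among 19 other mesenchymal factors, 5 were lower, among them *Sox4* (-1.61), the collagen regulator *Aebp1* (-1.43) and *Tbx15* (-1.18), and 1 was higher (*Tshz2*, 1.5005).

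Matrix genes of fibroblasts were lower as a group: 9 of 26 by over 1, with no member above 0 and a median of -0.87. *Col1a2*, a chain of type I collagen, had medians of 189 CPM (82.4 to 3095) and 1003 CPM (63.5 to 9960) and was lower by 1.41, with 17 of 21 colony cells under the unpicked median. *Col3a1* differed by -1.34, *Mfap5* by -1.33 and *Loxl1* by -1.32. The summed matrix level had a median of 8938 CPM (1389 to 32501) in colony cells and 14788 CPM (879 to 68523) in unpicked cells. Without the *Sox17*-high cells 9 members were lower by over 1 and the median was -0.61, beside -0.33 for all genes. These differences were smaller than those between untreated fibroblasts and day 20 cells, where the same list differed by -5.29.

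**Figure D3:**
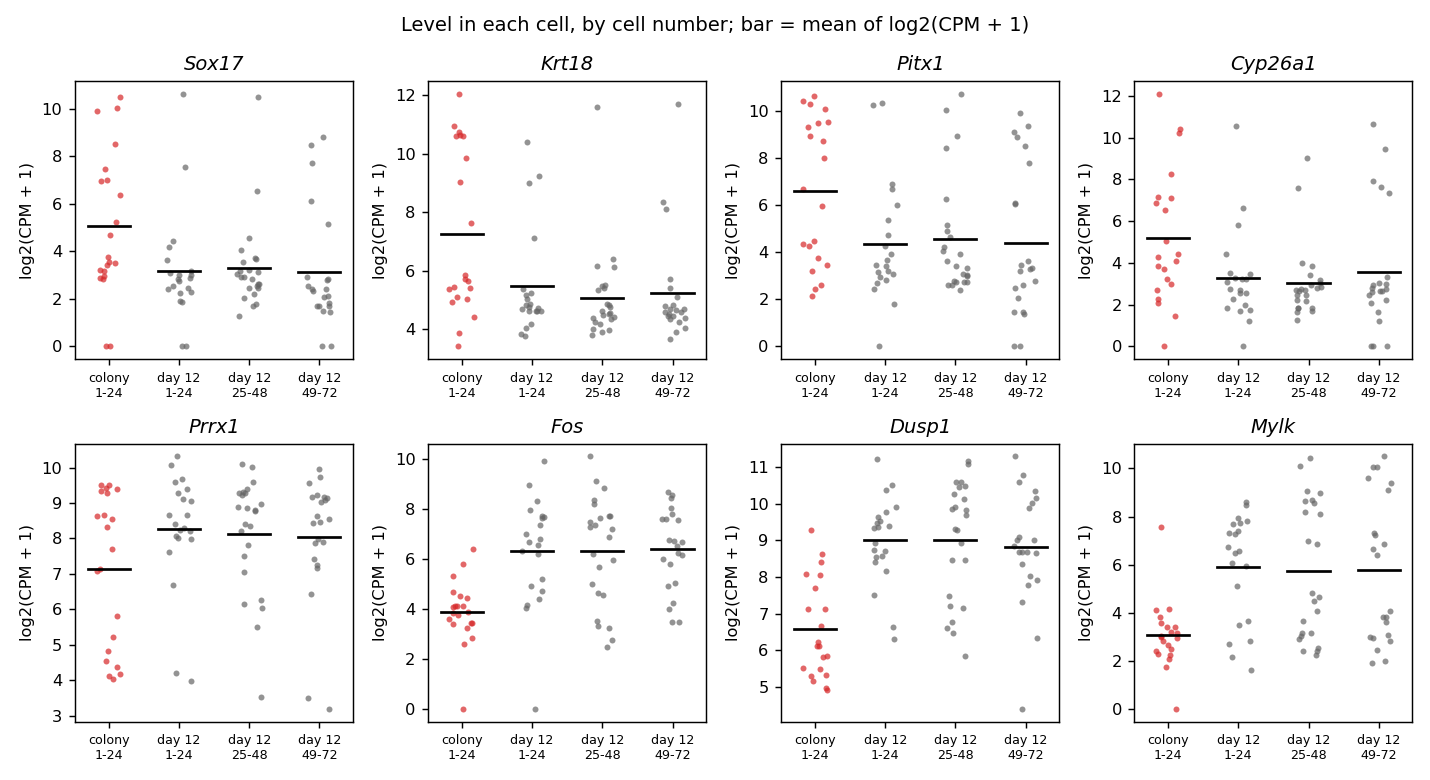
Log2(CPM + 1) of 8 genes in each cell, with 1 point per cell and a bar at the mean, for 21 colony cells (red) and for unpicked cells numbered 1 to 24 (21 cells), 25 to 48 (24 cells) and 49 to 72 (22 cells). *Sox17*, *Krt18*, *Pitx1* and *Cyp26a1* gain cells at the upper end, *Prrx1* is spread widely, and *Fos*, *Dusp1* and *Mylk* lie low in nearly the whole colony set.

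*Mylk* (chr16:34745296-35002520), myosin light chain kinase, which drives contraction, had the lowest difference of the 9217 genes. It ran from 0 to 190 CPM (median 6.87) in colony cells and from 2.08 to 1447 CPM (median 84.2) in unpicked cells, a difference of -2.74 (SD over cells 1.38 and 2.69). Only 1 of 21 colony cells was above the unpicked median, and 21 of 67 unpicked cells were above the highest colony cell. The contractile genes *Cnn1* (-1.76) and *Tagln* (-1.48) were lower as well, but just 2 of 16 genes of this list were past -1, with a median of -0.54. *Acta1* counted as higher (1.31) and is taken up again with the muscle genes.

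Immediate early genes, which respond within minutes to serum, growth factors, cAMP or the handling of cells, were low in the colony cells. *Fos* lay between 0 and 83.7 CPM (median 13.96) in colony cells and between 0 and 1104 CPM (median 103) in unpicked cells. The difference was -2.45 (SD over cells 1.28 and 1.97), every colony cell was under the unpicked median, and 37 of 67 unpicked cells were above the highest colony cell. *Dusp1*, a phosphatase that switches off MAP kinases, had values of 29.3 to 626 CPM (median 68.8) against 19.9 to 2514 CPM (median 514). It was lower by 2.37, with 20 of 21 colony cells under the unpicked median. *Dusp1* is counted in the cAMP list below and not in the immediate early list. *Fosb* (-1.77), *Egr2* (-1.19) and *Ier3* (-1.004) followed. Of 18 immediate early and heat shock genes, 4 were lower by over 1 (all genes 8.92%) and none higher (all genes 2.42%). Their median was -0.64.

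Without the *Sox17*-high cells *Fos* differed by -2.64 and *Dusp1* by -2.14. In the picked colony cells of day 8 against unpicked day 8 cells, which share no cell with this comparison, the differences had the opposite sign, 1.96 for *Fos* and 1.41 for *Dusp1*. How long the cells of each group were handled before lysis is not given in the sources used here.

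Forskolin acts through cAMP, and of 17 measured genes that cAMP induces in many cells none was above 0. Lower by over 1 were 6 of them (all genes 8.92%), and the list median was -0.79. Thinning gave -1.01, and leaving out the *Sox17*-high cells -0.54. *Stc1*, a secreted glycoprotein hormone, had medians of 352 CPM (95.9 to 9436) and 2524 CPM (75.7 to 11610) and was lower by 1.82, with 18 of 21 colony cells under the unpicked median. *Ptgs2*, the inducible prostaglandin synthase, differed by -1.60, and *Pde4b*, a phosphodiesterase that breaks down cAMP, by -1.53.

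The promoter bases of *Dusp1* and *Fos* are shown because these had the lowest differences of the cAMP and immediate early lists and carry the element, or its core, that the cAMP-responsive factor CREB is known to bind. Capitals mark the full element TGACGTCA in *Dusp1* (chr17:26645465-26645667, minus strand) and its core TGACG in *Fos* (chr12:86814590-86814839, plus strand), both on mm9 and from the same RefSeq table. The *Dusp1* sequence has 203 bases, since the last 47 of its 250 lie inside the annotated gene and were left out.
Dusp1: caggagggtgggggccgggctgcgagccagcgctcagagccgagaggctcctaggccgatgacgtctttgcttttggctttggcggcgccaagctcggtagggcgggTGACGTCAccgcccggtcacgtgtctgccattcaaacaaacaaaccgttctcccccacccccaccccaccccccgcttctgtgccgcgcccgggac
Fos: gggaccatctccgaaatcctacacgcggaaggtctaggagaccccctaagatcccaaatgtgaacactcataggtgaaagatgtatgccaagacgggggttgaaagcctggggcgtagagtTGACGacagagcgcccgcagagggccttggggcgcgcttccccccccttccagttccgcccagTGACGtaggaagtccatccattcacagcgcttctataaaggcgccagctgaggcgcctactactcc

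The full element, which is the same on both strands, was present in 508 of 32851 promoters of 250 bases (1.55%), from 478 of 27025 genes. In the cAMP list it was in 5 of 26 promoters (19.2%). These belonged to 5 of its 16 genes with a promoter in the table, *Areg*, *Dusp1*, *Pcsk1*, *Prkar1a* and *Sst*. It was in none of 14 genes of the immediate early list. The shorter core, searched on both strands and part of the full element, stood in 17.8% of all promoters. It stood in 14 of 26 cAMP promoters (53.8%, 11 of the 16 genes) and in 8 of 20 immediate early promoters (40%, 6 of the 14 genes). The lists were made of known targets, so these counts describe the lists and are not a result of the cells.

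Growth factor and cytokine lists held lower genes and no higher ones, but their medians varied among unpicked cells. Over all genes 8.92% were lower and only 2.42% higher, so the lack of higher genes does not set these lists apart. Of 17 genes of growth factor signalling and its ERK feedback, 5 were lower and none higher (median -0.44), among them the ligand *Ereg* (-1.76, medians 91.9 and 834 CPM), the feedback inhibitor *Spry4* (-1.60) and the receptors *Egfr* (-1.58) and *Fgfr1* (-1.44). Of 18 cytokine and chemokine genes, 7 were lower and none higher (median -0.70), including *Csf1* (-1.73), *Cxcl12* (-1.44), *Tnfaip3* (-1.35) and *Il11* (-1.28). Unpicked ranges differed by up to 0.52 in the first list and 0.58 in the second, and against unpicked cells 49 to 72 the medians were -0.26 and -0.23. Among interferon and MHC class I genes, 2 of 18 were higher (*Ifi27* 1.05, *Ifit3* 1.02) and 1 lower (*Psmb8*, -1.26), with the median of all genes, -0.16.

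In the TGF-β and activin list 3 of 11 genes were lower (all genes 8.92%) and none was higher (all genes 2.42%). The median was -0.69, and -0.93 without the *Sox17*-high cells. *Fst*, which binds and blocks activin, had medians of 92.7 CPM (16.1 to 2191) and 766 CPM (19.7 to 5978) and was lower by 1.95, with 18 of 21 colony cells under the unpicked median. The activin subunit *Inhba* differed by -1.21 and *Tgfb3* by -1.18, so ligand and inhibitor were both lower. BMP genes gave no common direction, with a median of -0.09 over 14 genes. The target *Msx2* was higher by 1.14 and the antagonist *Grem1* differed by -1.23. For *Grem1* the ratio of mean CPM had the opposite sign (1.25 on the log2 scale), set by few cells of up to 2064 CPM.

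Wnt targets were split as well, with a median of 0.06 over 16 genes. *Axin2*, the feedback target most closely tied to β-catenin, had medians of 139 CPM (0 to 596) and 30.3 CPM (0 to 431) and was higher by 1.55, with 14 of 21 colony cells above the unpicked median. *Myc* (-1.36), *Tnfrsf19* (-1.18) and the Wnt antagonist *Sfrp1* (-1.17) were lower. *Dot1l*, which encodes the enzyme that EPZ004777 inhibits, was lower by 1.64 (medians 2.09 and 11.7 CPM), in a chromatin list with 1 of 17 genes higher (*Hmgb3*, 1.63), 2 lower (with *Tet2*, -1.25) and a median of -0.01.

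**Figure D4:**
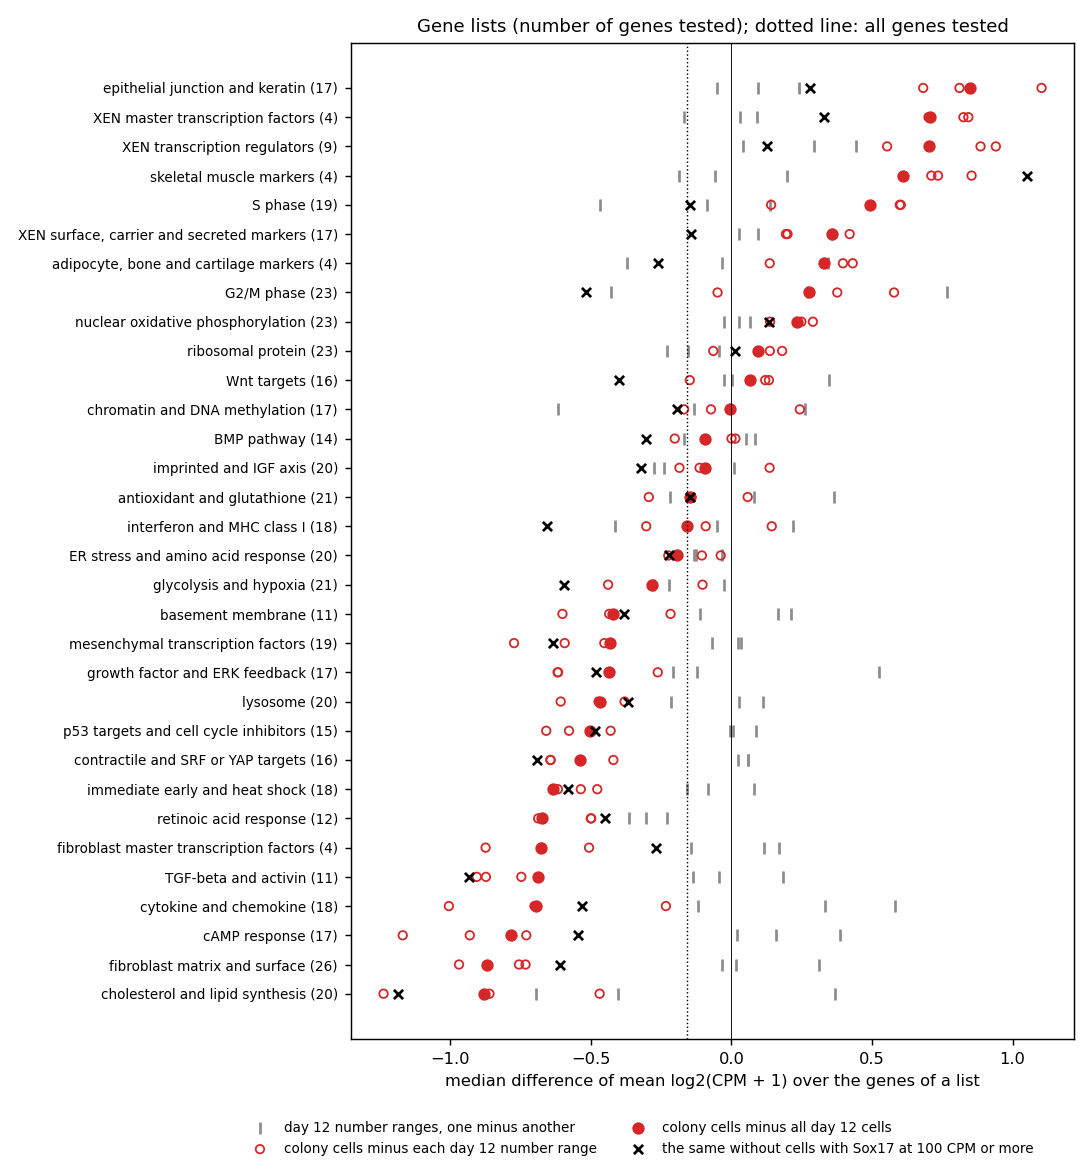
Median difference of mean log2(CPM + 1) over the genes of each list (number tested in brackets), for colony cells minus all unpicked cells (filled red), minus each of 3 ranges of unpicked cells (open red), and without cells with *Sox17* at 100 CPM or more (crosses), beside the differences among the unpicked ranges (grey bars). Lists with under 4 tested genes are not drawn, and the dotted line is the median of all genes tested, -0.16.

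Genes of cholesterol and lipid synthesis had the lowest list median, -0.88. Of 20 genes 6 were lower by over 1 and none was above 0, and without the *Sox17*-high cells 15 of 20 were lower with a median of -1.19. *Idi1*, which makes an isoprenoid building block, had medians of 11.003 CPM (0 to 66.7) and 69.4 CPM (0 to 2100) and was lower by 2.23, with all 21 colony cells under the unpicked median. *Cyp51* (-1.59), *Scd1* (-1.31) and *Msmo1* (-1.28) followed. This list also varied among unpicked cells, where number ranges differed by up to 0.70, and its median was -0.47, -1.24 and -0.86 against the ranges in turn.

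The other metabolic lists held few genes past 1. No gene of nuclear oxidative phosphorylation (23 tested, median 0.23) or of the ribosome (23 tested, median 0.10) was past 1, although 17 of the 23 oxidative phosphorylation genes were above 0 and unpicked ranges differed by at most 0.07 in that list. Glycolysis and hypoxia had 2 of 21 genes lower (*P4ha1* -1.41, *Adm* -1.36), near the share of all genes, 8.92%. Beside the same share, the ER stress and amino acid list had 3 of 20 lower. These were led by asparagine synthetase *Asns* (-2.05, medians 6.98 and 45.9 CPM) and the stress factor *Atf5* (-1.27). In the antioxidant list only 1 of 21 was past 1: *Hmox1*, heme oxygenase, with medians of 72.2 CPM (9.76 to 1174) and 500.0 CPM (25.5 to 2386). It was lower by 2.36, with 20 of 21 colony cells under the unpicked median and -2.14 without the *Sox17*-high cells. The median over 20 lysosomal genes was -0.47, where unpicked ranges differed by up to 0.21, and 16 of 21 colony cells were under the unpicked median of the summed list.

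Cell cycle lists differed by about as much as, or less than, sets of unpicked cells did among themselves. In the S phase list 1 of 19 genes was past 1 (*Hells*, 1.09), with a median of 0.49 where unpicked ranges differed by up to 0.47, and a median of 0.14 against unpicked cells 25 to 48. In the G2/M list 1 of 23 was past 1 (*Ccnb2*, 1.15), with a median of 0.28 where unpicked ranges differed by up to 0.77, and a median of -0.05 against unpicked cells 25 to 48. Without the *Sox17*-high cells the medians were -0.15 and -0.52. Among 15 p53 targets and cell cycle inhibitors 3 were lower, *Cdkn2b* (-1.64), *Gadd45b* (-1.35) and *Cdkn1a* (-1.19, medians 769 and 2290 CPM), and the median was -0.50. No cycling state can be read from these levels.

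The imprinted and IGF list had 4 of 20 genes higher and 4 lower, with a median of -0.09. *Igf2*, the fetal growth factor, had medians of 1483 CPM (19.8 to 3281) and 351 CPM (10.3 to 5046) and was higher by 1.38. Its neighbour *H19*, an untranslated RNA, had medians of 975 CPM (96.2 to 4286) and 205 CPM (56.5 to 9065) and was higher by 1.36, with 19 of 21 colony cells above the unpicked median. *Plagl1*, a zinc finger regulator of this network, differed by 1.47. The receptor *Igf1r* was lower by 1.60. Without the *Sox17*-high cells *Igf2* differed by 1.33 and *H19* by 1.11.

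Several of the genes with the largest differences belonged to no list. Among the higher ones were *Clp1* (2.36), an RNA kinase, with medians of 28.7 and 1.51 CPM, *Trub2* (2.24), a mitochondrial pseudouridine synthase, and *Chchd10* (2.09), a mitochondrial protein with medians of 43.7 and 3.80 CPM. *Tefm*, a mitochondrial transcription elongation factor, differed by 2.01, *Ociad2* by 1.90, *Htatsf1* by 1.89 and *Fkbp3* by 1.84. *Clp1*, *Trub2* and *Chchd10* stayed past 2 without the *Sox17*-high cells (2.62, 2.31 and 2.67). Among the lower ones were *Klf9* (-2.65), a factor induced by glucocorticoids, *Tpst1* (-2.62), a tyrosine sulfotransferase, *Ythdc1* (-2.48), a reader of modified RNA, *Srpx* (-2.42), the protease *Adamts1* (-2.39), the receptor *Il6ra* (-2.24) and the lipid enzyme *Gpat3* (-2.23). For *Tpst1* all 21 colony cells were under the unpicked median, and 39 of 67 unpicked cells were above the highest colony cell.

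Markers of other cell types were looked at in the same way. *Tnnt3*, a troponin of fast muscle, was higher by 1.97, with 0 to 7100 CPM (median 6.88) in colony cells and 0 to 144 CPM (median 2.36) in unpicked cells. Colony cell 14 alone held 35684 CPM of summed muscle markers, with *Mylpf* at 16862, *Tnnt3* at 7100 and *Myog* at 704 CPM, and *Acta1* at 52707 CPM. The next colony cell had 646 CPM, of which 644 CPM was *Tnnt3*, with *Mylpf*, *Actc1* and *Myog* at 0. The one after it had 311 CPM, of which 301 CPM was *Des*. The median of *Tnnt3* was 146 CPM in the *Sox17*-high colony cells and 3.44 CPM in the other colony cells. In unpicked cells these medians were 30.7 and 2.29 CPM. Without cell 14 the differences were 1.53 for *Tnnt3*, 0.77 for *Acta1* and 0.10 for *Mylpf*, and 279 genes were higher and 738 lower.

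Of 12 skeletal muscle markers 4 were measured well enough, and *Myf5*, *Myf6*, *Pax7* and *Ckm* were at 0 in all 88 cells. Summed muscle markers ran from 0 to 35684 CPM (median 52.8) in colony cells and from 0 to 1122 CPM (median 10.3) in unpicked cells. The immune sum had medians of 67.8 (0 to 527) and 23.0 CPM (0 to 619), with *Ptprc*, *Tyrobp*, *Fcer1g*, *Itgam* and *Laptm5* at 0 in all cells. The neural sum had medians of 98.0 (0 to 564) and 43.8 CPM (2.15 to 653), with *Elavl3*, *Gfap* and *Sox10* at 0. Endothelial markers had medians of 35.6 (0 to 286) and 32.0 CPM (0 to 399), with *Pecam1*, *Emcn* and *Erg* at 0. Adipocyte, bone and cartilage markers had medians of 61.3 (25.01 to 4154) and 68.1 CPM (11.7 to 21771), with *Lpl* lower by 1.20 and *Plin1*, *Adipoq*, *Col2a1* and *Matn1* at 0. No immune, neural or endothelial marker was past 1. Fibroblast markers were present in both groups, with *Col1a2* and *Prrx1* detected in all 88 cells.

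Because cell numbers run in sets of 24, the unpicked cells offer a measure of how far sets of cells from 1 group differ. Over the 9217 genes, the unpicked cells numbered 1 to 24 were higher by over 1 in 2.22% and lower in 7.4% against those numbered 25 to 48, and higher in 3.69% and lower in 5.26% against those numbered 49 to 72. Cells 25 to 48 were higher in 5.69% and lower in 2.14% against cells 49 to 72. The colony cells were higher in 5.77% and lower in 10.3% against the first range, 2.81% and 14.5% against the second, and 4.44% and 10.8% against the last. In either direction this makes 1480, 1595 and 1403 genes for the colony cells and 887, 825 and 721 among the unpicked ranges. Past 1 against every range were 95 higher genes (1.03%) and 327 lower genes (3.55%), and *Sox17*, *Krt18*, *Pitx1*, *Cyp26a1*, *Fos*, *Dusp1*, *Mylk* and *Hmox1* were among them. Of the 35 lists, 23 had a median farther from 0 than any difference between unpicked ranges. Whether the ranges are libraries is not stated in the sources used here.

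The calls were set beside contrasts that share no cell with the comparison. Of the 223 higher genes, 58 (26.01%) were also higher by over 1 from untreated fibroblasts to day 20 cells, where 12.0% of the genes tested were, and they made up 5.25% of the 1105 genes of that contrast. Of the 822 lower genes, 334 (40.6%) were also lower there, against 23.7% of all genes, and they made up 15.3% of its 2184. Past 1 the opposite way there were 33 of the 223 (14.8%, all genes 23.7%) and 78 of the 822 (9.49%, all genes 12.0%). For picked against unpicked cells of day 8 the shared numbers were 32 of 223 (14.3%, all genes 3.95%) and 244 of 822 (29.7%, all genes 15.2%), which were 8.79% of 364 and 17.4% of 1399. The opposite numbers at day 8 were 20 of 223 (8.97%, all genes 15.2%) and 11 of 822 (1.34%, all genes 3.95%). *Sox17* differed by -0.12 between picked and unpicked cells of day 8, *Krt18* by 0.14 and *Pitx1* by 1.40.

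Colony cells numbered 49 to 96, set against the same unpicked cells, differed in 1304 higher (14.1%) and 3111 lower genes (33.8%). They share the unpicked cells with the comparison above, so their values are given only side by side. *Sox17* differed by 5.32 there and by 1.84 in the early-numbered cells, *Gata4* by 5.65 and 0.77, *Sall4* by 4.81 and -0.25, *Krt18* by 3.14 and 2.00, *Prrx1* by -7.27 and -1.02, and *Twist2* by -9.20 and -0.89. *Sox17* was at 100 CPM or more in 26 of these 30 cells, at a median depth of 276240 UMIs, and in 7 of the 21.

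*Xist*, which is transcribed from the inactive X chromosome of female cells, and the Y-linked genes *Ddx3y*, *Eif2s3y*, *Uty* and *Kdm5d* were read afterwards to see whether cells of both sexes were present. At 10 UMIs or more, 8 colony cells held only Y-linked UMIs, 6 only *Xist*, none both and 7 neither. In the unpicked cells these numbers were 5, 32, 1 and 29. Colony cells with Y-linked UMIs held at most 4 *Xist* UMIs, and those with *Xist* at most 3 Y-linked UMIs. Both groups thus held cells from at least 1 male and 1 female embryo, and in the colony group the signals did not mix.

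The *Sox17*-high cells differed in this too. Of the 7 colony cells with *Sox17* at 100 CPM or more, 5 held 10 or more Y-linked UMIs and 0 held 10 or more *Xist* UMIs. Of the 6 such unpicked cells 0 held Y-linked UMIs at this level and 4 held *Xist*. The part of embryo of origin in the differences above was not tested.

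**Figure D5:**
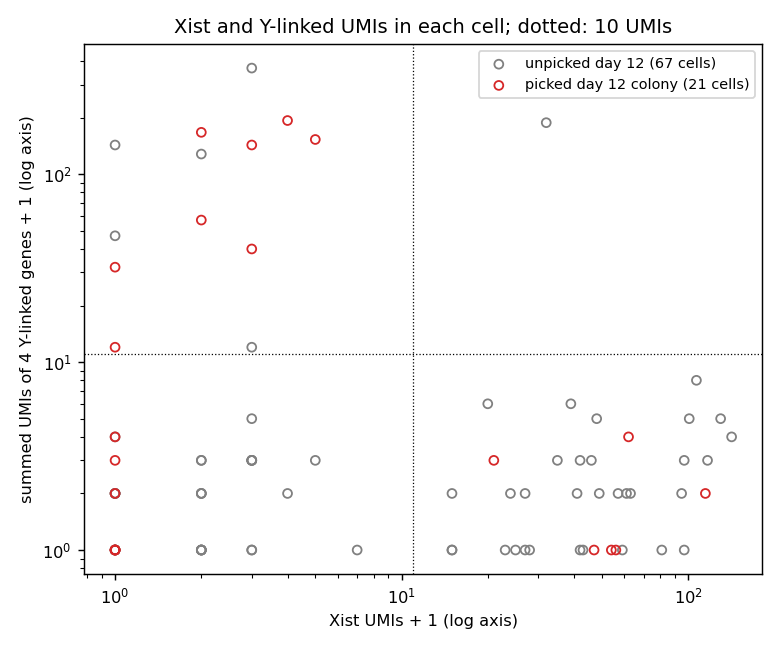
*Xist* UMIs plus 1 (horizontal, log axis) against the summed UMIs of 4 Y-linked genes plus 1 (vertical, log axis) in each of 21 colony cells (red) and 67 unpicked cells (grey), with dotted lines at 10 UMIs. Only 1 cell, an unpicked one, lies in the upper right, and 8 colony cells are in the upper left and 6 in the lower right.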

How the data were processed

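The deposited table holds UMI counts per gene and cell. Per the labels and the study's methods, the authors split reads by barcode, trimmed, mapped to the mouse transcriptome of build mm9 and counted each UMI once. The aligner and any filter on cells are not given in the sources used here. Of 23201 gene entries, 4 under duplicated names were left out, as were 92 ERCC spike-ins.

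Counts were scaled to CPM per cell, log2(CPM + 1) was averaged over cells with at least 4000 detected genes, and genes whose mean reached 1 on 1 side or both were compared. All cells came from 1 table without a link to the 10 samples, so no test was run. Cells were picked by hand and doublets were not called. The 1 unpicked cell with both 187 Y-linked and 31 *Xist* UMIs was kept. On simulated counts with known shifts, the procedure was checked only for finding those shifts. The simulation did not mix *Sox17*-high and other cells as the groups here do, so it does not vouch for these differences. Intervals for shares are exact Clopper-Pearson intervals at 95%, and a depth of 102428 UMIs in the shallowest colony cell makes 1 UMI worth about 10 CPM.

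Genes were named by rule: 10 master factors, the 12 highest and 12 lowest differences that kept their sign after thinning, and up to 4 genes of each of 35 lists with the largest difference. *Areg*, *Pcsk1*, *Prkar1a* and *Sst* were named for their promoters, and *Myog*, *Xist* and the Y-linked genes after their values were seen. Some genes that the rule names are not reported here. The members and lists were chosen with earlier results of these data known. Alternatives covered the cell and gene filters, scaling (edgeR 4.0.16 TMMwsp, DESeq2 1.42.0 poscounts), pseudocount, thinning, averaging, the unpicked cells used and cells with high *Sox17*. Python 3.11.15, numpy 2.4.6, pandas 2.3.3, scipy 1.17.1 and R 4.3.3 were used.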

Additional observations from a re-analysis of the deposited data

How the results depend on the processing

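No paired analysis was possible because the cell names carry no replicate or sample, and leaving out a replicate was not possible for the same reason. The 9217 genes were held fixed except where the gene filter changed. The count of higher genes, 223, was 115 with no minimum of detected genes per cell, 536 with at least 6000, 43 with a pseudocount of 10, 440 after thinning, 753 from log2 of mean CPM, 543 from medians, 6 past a difference of 2, and 409 against unpicked cells 49 and above. The count of lower genes, 822, was 141 with a pseudocount of 10, 1692 from medians, 28 past 2 and 1372 without the cells with *Sox17* at 100 CPM or more. In comparisons added after seeing the data, 532 genes were higher against unpicked cells 1 to 24 and 1336 lower against 25 to 48. Lower genes outnumbered higher ones under all of these. With at least 6000 detected genes per cell the excess was small: 536 genes were higher and 594 lower. The median of all genes was then -0.0068, beside -0.16 as reported. TMMwsp and poscounts scaling gave 194 and 216 higher and 919 and 828 lower genes, with medians of all genes of -0.21 and -0.17. The share of cells with *Sox17* was 90.5% of colony and 53.7% of unpicked cells at a limit of 5 CPM, and 40.9% of unpicked cells after thinning, and it was higher in colony cells under each setting. The number of lists above the median of all genes, 19 of 35, ran from 14 to 19. Of 97 named genes past 1, 93 stayed past it with TMMwsp, 95 with poscounts, 87 after thinning, 63 with a pseudocount of 10, 73 with log2 of mean CPM and 74 without the *Sox17*-high cells. Signs turned for *Rarb* (0.35) and *Grem1* (1.25) with log2 of mean CPM and for *Bex4* (-0.25) without the *Sox17*-high cells. With 21 colony cells and no replicates, the spread between cultures or days is unknown, and the threshold of 1 only counts genes. Colony cells numbered 49 to 96 were set side by side and not used in place of the early-numbered ones.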
